A study of Mus musculus with 4 samples.

Results

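Non-Hox homeobox and Pax genes encode transcription factors that lay out the embryo: they set up the brain and spinal cord, the eye, limbs, heart, kidney and the germ layers. The 43 genes described here were taken as those named in a fixed list of Pax, Lhx, Isl, Nkx, Dlx, Msx, En, Otx, Gbx, Emx, Irx, Dbx, Evx, Gsc, Mixl, Pitx, Alx, Cdx, Meox and Pou3f genes with Six2 and Six3. All 43 are on the array, with 146 of its 45220 features, out of 19087 genes that could be named. In 10 of the 43 the gene is spotted 10 or more times, 7 have 2 to 9 features and 26 have 1.

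Expression was measured once for each of 4 plasmids in the mouse embryonic stem (ES) cell line E14 on 1-colour arrays. The Mtf2 RNAi arm held pSuper plasmids with Mtf2 hairpin 1 and Mtf2 hairpin 3, and the control arm held pSuper with a luciferase hairpin and the empty pSuper vector. Every culture was transfected with lipofectamine and kept in puromycin for 2 days, so the plasmid backbone, transfection and selection are shared by both arms. There is 1 array per plasmid, the cells of a culture were measured in bulk, and the spread within an arm contains the difference between its plasmids. In bulk RNA, fewer cells expressing a gene and less RNA per cell cannot be told apart.

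Homeobox proteins bind DNA through the homeodomain, a small helical fold. Pax proteins carry a paired domain, Pou3f proteins a POU domain, and Lhx and Isl proteins LIM domains, in most cases beside the homeodomain. In ES cells these genes are mostly silent, and many of their CpG-rich promoters carry H3K27me3, the mark placed by the Polycomb complex PRC2. Mtf2 is an accessory PRC2 subunit that binds CpG-rich DNA, so the comparison asks whether these developmental genes differ when Mtf2 is targeted.

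The promoters of 4 of the genes show the CpG-rich sequence. Each line gives the 250 bases before the gene start from RefSeq on GRCm38.p6, 5′ to 3′ on the gene's strand, with every CpG dinucleotide in capitals. Lhx1 was chosen by a rule on differences, and the others after their values were seen: Nkx6-2 and Isl1 as genes with a signal above the median feature, and En1 as a gene with no feature above the floor. The windows lie at chr7:139582798-139583047 (- strand) for Nkx6-2, chr13:116309689-116309938 (- strand) for Isl1, chr11:84525535-84525784 (- strand) for Lhx1 and chr1:120602237-120602486 (+ strand) for En1.
Nkx6-2: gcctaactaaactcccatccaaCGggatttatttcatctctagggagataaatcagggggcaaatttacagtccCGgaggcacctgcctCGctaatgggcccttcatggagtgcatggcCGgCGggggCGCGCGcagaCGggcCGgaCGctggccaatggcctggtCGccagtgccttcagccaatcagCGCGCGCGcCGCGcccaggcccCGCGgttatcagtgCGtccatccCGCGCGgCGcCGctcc
Isl1: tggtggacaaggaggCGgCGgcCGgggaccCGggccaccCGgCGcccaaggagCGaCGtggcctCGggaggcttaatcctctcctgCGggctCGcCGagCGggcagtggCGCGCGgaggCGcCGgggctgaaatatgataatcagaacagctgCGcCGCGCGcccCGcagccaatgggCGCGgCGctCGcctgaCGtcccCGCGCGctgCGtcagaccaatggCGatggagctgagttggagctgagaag
Lhx1: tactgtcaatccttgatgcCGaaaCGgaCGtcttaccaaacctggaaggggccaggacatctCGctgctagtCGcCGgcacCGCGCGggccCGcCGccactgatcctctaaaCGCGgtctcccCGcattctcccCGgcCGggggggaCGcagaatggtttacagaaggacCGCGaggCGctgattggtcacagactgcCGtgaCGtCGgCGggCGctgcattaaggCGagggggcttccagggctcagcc
En1: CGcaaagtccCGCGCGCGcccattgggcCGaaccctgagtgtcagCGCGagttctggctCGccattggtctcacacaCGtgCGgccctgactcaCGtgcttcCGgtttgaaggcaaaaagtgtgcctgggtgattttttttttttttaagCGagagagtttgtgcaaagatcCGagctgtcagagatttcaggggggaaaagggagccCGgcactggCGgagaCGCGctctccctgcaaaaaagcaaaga

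These windows hold 26 CpG dinucleotides in Nkx6-2, 33 in Isl1, 26 in Lhx1 and 19 in En1. Over all 32851 windows of the table the median was 6 and the 75th percentile 16. Windows were given for 31 of the 43 genes, 38 in all, and held from 4 (Lhx9) to 33 (Isl1) CpG dinucleotides with a median of 17. Of the 38, 34 (89.5%) lay above the median of all windows, against 46.3% of all windows, and 19 (50.0%) above the 75th percentile, against 23.5% of all windows. Genes of the same family differed: Six2 had 26 and Six3 10, and among Nkx genes Nkx6-1 had 30 and Nkx2-5 and Nkx2-2 8 each. The 18 windows of genes that read above the median feature had a median of 19 CpG, and the other 20 windows a median of 13. The TATA box letters TATAAA, looked for on both strands, stood in 3 of the 38 windows (7.9%), those of Gsc, Dbx1 and 1 of the 4 of Otx2, against 12.4% of all windows. These counts describe sequence and carry no test. Pax3, Lhx5, Dlx3, Dlx5, En2, Otx1, Mixl1, Pitx1, Alx4, Cdx1, Meox1 and Pou3f1 have no window in the table.

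**Figure D1:**
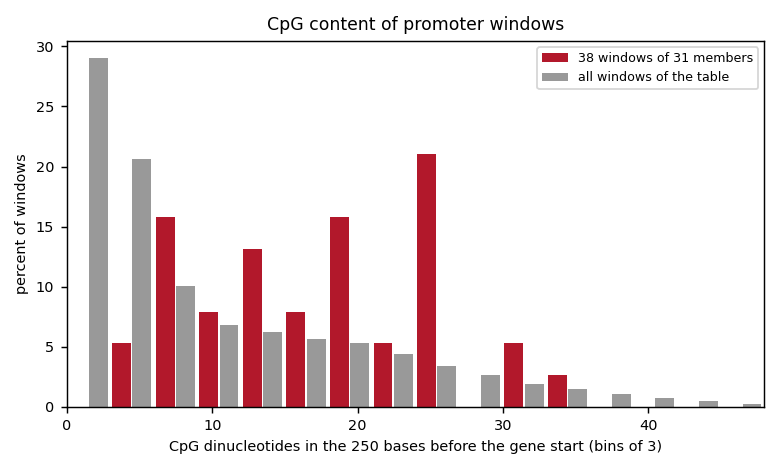
Percent of promoter windows (vertical axis) by the number of CpG dinucleotides in the 250 bases before the gene start (horizontal axis, bins of 3), for the 38 windows of 31 homeobox and Pax genes (red) and for all 32851 windows (grey). The red bars lie further right, with a median of 17 against 6.

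Intensities are the deposited linear values, multiplied by 1 factor per array so that all 4 arrays have the same 75th percentile, 22.98 units. Values under 1 unit were raised to 1 before log2 was taken, and this is called the floor. Arms are called separate where both Mtf2 RNAi arrays lie on the same side of both control arrays. The median feature of the array stood at 3.08 units (from the mean log2 level over the 4 arrays), and probes differ in how they bind, so an intensity is compared between arrays but not between genes. The empty-vector array has a strip of low readings, with 1635 low positions in columns 70 to 85, and it correlated less with the others (Pearson r of 0.945 to 0.949 over 35102 features, log2 scale) than they did among themselves (0.976 to 0.979). Of the 146 features, 8 lie in such positions of the empty-vector array, and they are named where they matter. All 7 ES cell markers examined read above the median feature. Of the markers of other cell types, 4 of 8 for fibroblasts, 4 of 5 for neural cells, 5 of 5 for mesoderm, 4 of 6 for endoderm and 3 of 6 for trophoblast did so too, and 0 were at the floor on all 4 arrays. The summed intensity of the 7 ES cell markers was 9335.9 and 8036.7 with the Mtf2 hairpins, against 7376.8 and 10199.0 in the controls, with 5 higher and 2 lower. Most of that sum was Dppa5a and Zfp42. Nanog was separate and higher (553 and 386 against 186 and 350), and Esrrb separate and lower (609 and 579 against 786 and 674). The 8 fibroblast markers summed to 82.2 and 77.7 against 99.0 and 118.6, mostly from Thy1 and Pdgfrb. Of the 8, 0 were higher, while 8250 of all 19087 named genes were. In 4 of the 8 the arms were separate, each lower with Mtf2 RNAi, and 16.1% of all named genes were separate and lower. The 5 neural markers summed to 143.6 and 162.2 against 163.0 and 261.0, with 2 higher and 3 lower. Most of that sum was Tubb3 (90.4 and 110 against 119 and 202). The 6 endoderm markers summed to 40.4 and 47.3 against 41.8 and 42.9, with 3 higher and 3 lower. The 5 mesoderm markers summed to 40.3 and 27.2 against 32.7 and 26.1, with 2 higher and 3 lower. Of these, Twist1 had 12.6 and 9.49 against 8.31 with the luciferase hairpin and 1.04 with the empty vector. The 6 trophoblast markers summed to 189.4 and 147.9 against 253.0 and 173.1, with 3 higher and 3 lower. Most of that sum was Tfap2c (157 and 119 against 221 and 141). The part of these cell types in the values below was not tested.

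Mtf2 itself read lower with both hairpins on 3 of its 4 features. On feature 23720 it had 105.2 with hairpin 1 and 112.0 with hairpin 3, against 243.0 with the luciferase hairpin and 215.8 with the empty vector (-1.08 log2). The brightest feature, number 321, had 501.1 and 335.0 against 737.2 and 174.8, and on it the arms overlapped.

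Most of the 43 genes gave little signal. In 7 of them, Pax8, Nkx2-2, Dlx1, En1, Irx3, Cdx1 and Pou3f2, all 17 features were under 1 unit on all 4 arrays. These values lay between -0.29 and 0.99, and no difference could be measured. The 7 are 16.3% of the 43 genes, while 12.2% of all named genes had every feature at the floor. The other 36 had a feature that was tested, and in 18 of the 43 the brightest feature lay above the median feature (41.9%, against 64.8% of all named genes). None of the 43 passed limma's test over the 35102 features tested: 0 features of the array were called (0% at an adjusted p under 0.05, with 1467 at an unadjusted p under 0.05), and the lowest adjusted p was 0.868. An exact permutation test of 2 arrays against 2 cannot go below a two-sided p of 0.333. The differences that follow are therefore values without a call.

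**Figure D2:**
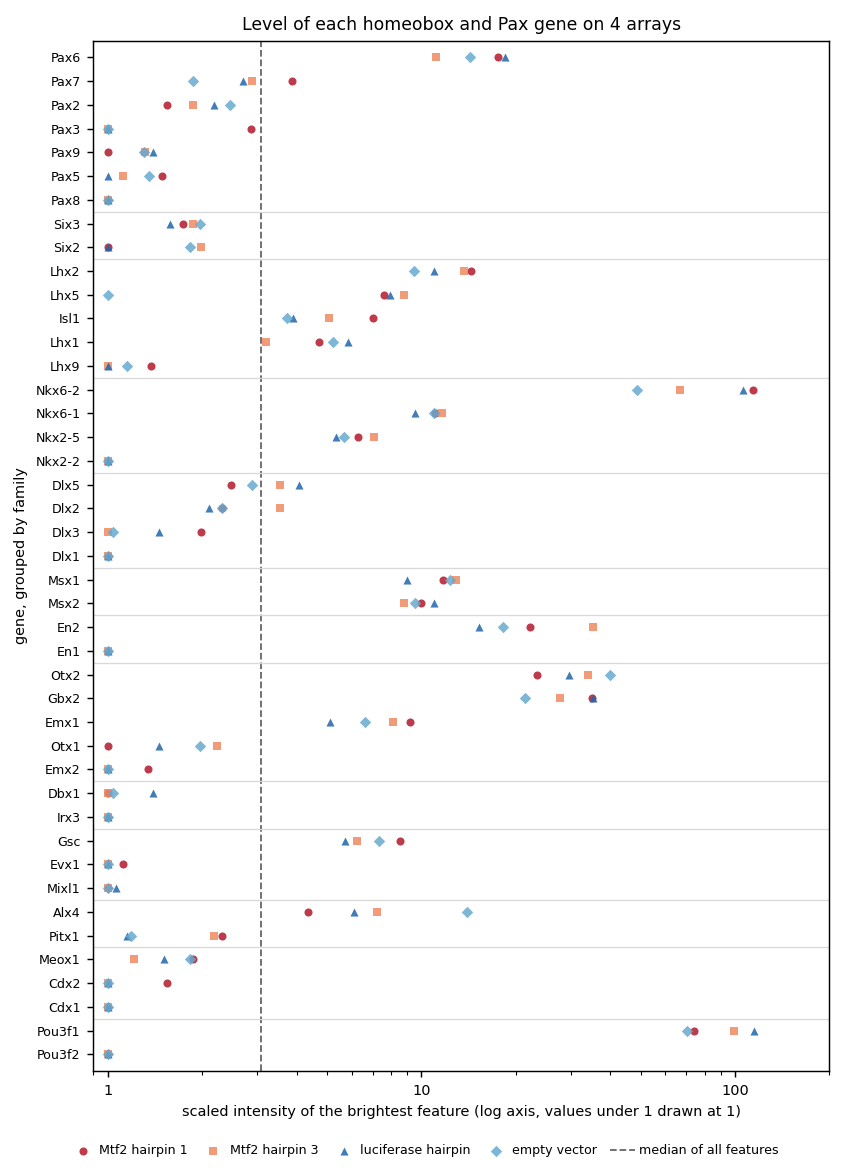
Scaled intensity (horizontal log axis) of the brightest feature of each of the 43 genes (vertical axis, by family) on the Mtf2 hairpin 1, Mtf2 hairpin 3, luciferase hairpin and empty-vector arrays. Points can be compared along a row, not between rows; 25 of the 43 genes have a mean at or below the median of all features (dashed line, 3.08 units), and the arms overlap in most rows.

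Arms were separate in 11 of the 43 genes by their brightest feature. En2, Lhx2, Nkx6-1, Emx1, Nkx2-5, Isl1, Pax7 and Pitx1 were higher with Mtf2 RNAi, 8 genes (18.6%), against 13.2% of all named genes. Lhx1, Pax2 and Dbx1 were lower, 3 genes (6.98%), against 16.1% of all named genes. Among the 18 genes above the median feature 6 were separate upwards and 1 downwards, while 16.5% and 19% of all named genes above that level were. The median difference was 0.06 log2 over the 43 genes and 0.0 over all genes, with the 7 members under the floor on every array counted at 0. Over the genes above the median feature it was 0.18 for the 18 and -0.002 for all named genes. Since the list was chosen with earlier results known, these shares stand side by side without a test.

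The En genes pattern the midbrain and cerebellum. En1 was under the floor on each of its 10 features. En2 had a signal on all 10 of its features, and their median was 23.5 units with Mtf2 hairpin 1 and 22.0 with hairpin 3, against 16.1 with the luciferase hairpin and 15.5 with the empty vector. All 10 features read higher with Mtf2 RNAi, by 0.01 to 2.28 log2, and on 4 of them the arms were separate. The difference of the median over features was 0.52 log2 (SE 0.23, limma adjusted p = 0.881 over genes). The largest of the 10 differences, 2.28, comes from a feature in the low strip, where the empty vector had 0.30 units against 23.3 with the luciferase hairpin. Over the 9 sound features the difference was 0.54. On the brightest feature En2 had 22.1 and 35.4 with the Mtf2 hairpins, against 15.3 and 18.2 in the controls (0.75 log2, SE 0.34, adjusted p = 0.868). Without hairpin 3 that feature read 0.41 higher. The 10 features repeat 1 array measurement each and are not replicates of the arms.

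Among the LIM homeobox genes, Isl1, a factor of motor neurons and of cardiac progenitors, was, beside En2, the gene with 10 or more features whose arms were separate in the median over features. That median over 10 features was 3.52 units with hairpin 1 and 4.84 with hairpin 3, against 3.15 with the luciferase hairpin and 3.23 with the empty vector, 0.37 log2 higher (SE 0.30, limma adjusted p = 0.881). In 9 of the 10 features the Mtf2 RNAi mean was higher, and in 6 the arms were separate, while 1 feature read -0.13 and another 1.07. The feature in column 84 falls in the low strip, with 0.57 units for the empty vector, and over the 9 sound features 8 were higher and the difference of the median was 0.48. On the brightest feature the gene had 7.02 and 5.07 against 3.91 and 3.72 (0.65 log2, SE 0.36, limma adjusted p = 0.868), which became 0.41 without hairpin 1 and 0.88 without hairpin 3. Its promoter is the one with the most CpG of the 38 windows.

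Lhx2, which acts in eye and forebrain formation, had 14.4 units with hairpin 1 and 13.7 with hairpin 3, against 11.0 with the luciferase hairpin and 9.45 with the empty vector. Both Mtf2 RNAi arrays were above both controls, by 0.46 log2 (SE 0.30, limma adjusted p = 0.868), and the difference lay between 0.35 and 0.57 when any 1 array was left out. Lhx5, a gene of forebrain and spinal interneurons, had 7.58 and 8.80 against 7.94 with the luciferase hairpin and -0.49 with the empty vector. Its 1.54 log2 (SE 0.99, limma adjusted p = 0.868) comes from the empty-vector reading, which lies in the low strip: with that reading dropped, the luciferase array being then the only control, the difference was 0.04. Lhx1, which acts in the head organiser and the kidney, had 4.72 and 3.20 on its brightest feature against 5.83 and 5.22 (-0.51 log2, SE 0.38), which became -0.23 without hairpin 3 and -0.79 without hairpin 1. Its 11 features did not share that direction: 4 were higher, 6 lower and 1 was at the floor on all arrays, from -0.75 to 0.84, and the median over features read -0.11 (SE 0.36). The brightest feature of Lhx9, a gonad and limb factor, was at or near the floor, with 1.37 and 0.90 against 0.06 and 1.15.

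Otx2 specifies the anterior neural plate and is expressed in ES cells and the epiblast. Its 10 features read alike, with an SD of 0.23 to 0.29 log2 over features on each array. Their median was 25.9 units with hairpin 1 and 29.5 with hairpin 3, against 26.4 with the luciferase hairpin and 30.4 with the empty vector, and the arms overlapped. The difference of the median was -0.04 log2 (SE 0.23, limma adjusted p = 0.980), with 5 features higher and 5 lower. On the brightest feature it had 23.4 and 33.9 against 29.5 and 39.9 (-0.28, SE 0.32), which became -0.02 without hairpin 1 and -0.55 without hairpin 3. Gbx2, the hindbrain counterpart of Otx2 that is also expressed in naive ES cells, had 35.1 and 27.7 against 35.1 and 21.4 (0.18 log2, SE 0.34), with the empty vector lowest. Emx1, a cortical gene, had 9.19 and 8.11 against 5.10 and 6.60, with both Mtf2 RNAi arrays above both controls (0.57 log2, SE 0.35, limma adjusted p = 0.868). Emx2 and Otx1, its forebrain relatives, were below the median feature: Emx2 was over the floor only with hairpin 1 (1.34 units), and Otx1 had 0.85 and 2.23 against 1.46 and 1.97.

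**Figure D3:**
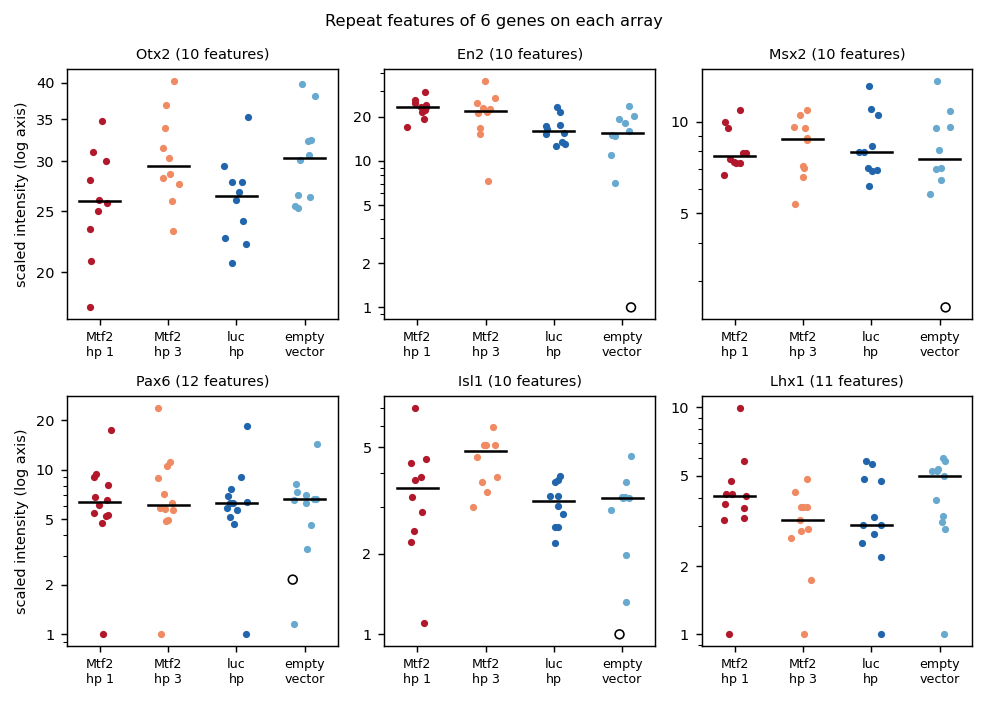
Scaled intensity (vertical log axis, values under 1 drawn at 1) of every feature of Otx2, En2, Msx2, Pax6, Isl1 and Lhx1 on the 4 arrays (horizontal axis). Points are features, black lines their medians, and open circles features in the low strip of the empty-vector array. For En2 both Mtf2 RNAi medians (23.5 and 22.0) lie above both control medians (16.1 and 15.5), while for Otx2, Msx2, Pax6 and Lhx1 the medians of the arms overlap.

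Pax6, the master gene of eye development, has 12 features. Their median was 6.33 and 6.07 units with hairpins 1 and 3, against 6.28 with the luciferase hairpin and 6.61 with the empty vector, a difference of -0.06 log2 (SE 0.26, limma adjusted p = 0.972). Higher and lower features were equal in number (6 and 6), but 1 of the higher features lies in the low strip. Over the 11 sound features 5 were higher and the difference of the median was -0.12. The brightest feature, listed with another accession, had 17.5 and 11.1 against 18.5 and 14.3 (-0.22, SE 0.36), and feature 17139 had 23.8 with hairpin 3 alone, while hairpin 1 gave 5.29 and the controls 5.14 and 8.24. The other Pax genes were at or below the median feature. Pax7, of muscle stem cells and dorsal neural tube, had 3.87 and 2.88 against 2.70 and 1.87, with separate arms (0.57 log2, SE 0.37). Pax2, of kidney and optic stalk, had 1.55 and 1.87 against 2.19 and 2.45 on its brightest feature, also separate (-0.44, SE 0.28). However, 5 of its 10 features were higher and 5 lower, and their median read -0.04. Without the 1 higher feature in the low strip, 4 of 9 were higher and the median read -0.12. Pax3, the neural crest and muscle gene, had 2.86 with hairpin 1 and 0.99 with hairpin 3, against 0.84 and 0.93, on 1 feature of 11 (0.76, SE 0.52), a reading of 1 array, while 8 of its features were at the floor on all 4 arrays. Pax9, of pharyngeal pouches and teeth, had 0.41 and 1.32 against 1.39 and 1.31. Pax5, the B cell commitment factor, had 1.49 and 1.12 against 0.43 and 1.35, and the thyroid and kidney gene Pax8 was under the floor.

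Of the Nkx genes, Nkx6-2, which acts in ventral spinal cord and in oligodendrocytes, had 114 units with hairpin 1 and 66.8 with hairpin 3, against 106 with the luciferase hairpin and 48.8 with the empty vector. Each arm held a high and a low array, and the difference of 0.28 log2 (SE 0.47, limma adjusted p = 0.918) was smaller than the 1.12 log2 between both controls. Nkx6-1, of motor neuron progenitors and pancreatic beta cells, had 11.0 and 11.6 against 9.55 and 11.0; its arms were separate by a margin of 0.01 log2 between hairpin 1 and the empty vector (0.15, SE 0.30). Nkx2-5, the early heart factor, had 6.27 and 7.08 against 5.34 and 5.65, with both Mtf2 RNAi arrays higher (0.28, SE 0.33, limma adjusted p = 0.884). Nkx2-2, of ventral neural tube and pancreas, was under the floor.

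Msx1 and Msx2 are BMP-responsive genes of limb, tooth and skull. Msx2 had a median of 7.71 and 8.75 units over 10 features with the Mtf2 hairpins, against 7.96 and 7.55 in the controls. The difference of the median was 0.08 log2 (SE 0.26, limma adjusted p = 0.960). One feature lies in the low strip, and over the 9 sound features 4 were higher and the difference was 0.05. On its brightest feature all 4 arrays lay between 8.82 (hairpin 3) and 11.0 (luciferase hairpin), with overlapping arms (-0.13, SE 0.31). Msx1 gave a signal on 1 feature of 11, with 11.7 and 12.9 against 9.02 and 12.4 (0.22, SE 0.33). The next brightest of its features reached 1.85 units at most, and 6 were at the floor on all 4 arrays, so features listed for this gene disagree on whether it gave a signal.

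The Dlx genes pattern forebrain interneurons, jaw and limb. Dlx5 had 2.48 and 3.54 against 4.06 and 2.88, with overlapping arms (-0.21 log2, SE 0.39). Dlx2 had 2.32 and 3.54 against 2.10 and 2.32 (0.38, SE 0.35), and Dlx3 1.99 and 0.56 against 1.46 and 1.04. Dlx1 was under the floor. Six3 and Six2 were below the median feature. Six3, of forebrain and eye, had 1.74 and 1.87 against 1.58 and 1.97, but -1.21 log2 on its other feature (1.17 and 0.42 against 2.19 and 2.85), and Six2, of kidney progenitors, had 0.50 and 1.99 against 0.71 and 1.83.

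Pou3f1 (Oct6), a POU factor of the epiblast and of Schwann cells, had 73.9 units with hairpin 1 and 99.2 with hairpin 3, against 115 with the luciferase hairpin and 70.5 with the empty vector. The Mtf2 RNAi arrays lay between the controls (-0.07 log2, SE 0.33, limma adjusted p = 0.962). Its relative Pou3f2 (Brn2) was under the floor. Gsc, the organiser gene, had 8.57 and 6.23 against 5.72 and 7.35, with overlapping arms (0.17 log2, SE 0.37). The streak and mesoderm genes Mixl1 and Evx1 stayed near the floor, with a highest reading of 1.06 for Mixl1 and 1.12 for Evx1. Of the Cdx genes, which set posterior identity and, for Cdx2, trophectoderm, Cdx1 was under the floor and Cdx2 reached 1.55 with hairpin 1 alone. Meox1, of somites, had 1.87 and 1.21 against 1.51 and 1.83. Dbx1, of spinal interneurons, had 0.87 and 0.70 against 1.39 and 1.04, and its Mtf2 RNAi values were both at the floor. Irx3 was under the floor.

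Pitx1, a factor of hindlimb and pituitary, had 2.32 units with hairpin 1 and 2.18 with hairpin 3, against 1.15 with the luciferase hairpin and 1.19 with the empty vector. Arrays of the same arm differed little here, and the difference was 0.94 log2 (SE 0.24, limma adjusted p = 0.868), between 0.90 and 0.99 when any 1 array was left out. All 4 readings were below the median feature, and with a floor of 2 units in place of 1 the difference was 0.17. Alx4, a limb and skull gene, had 4.36 and 7.20 on its brightest feature, against 6.11 with the luciferase hairpin and 14.0 with the empty vector (-0.72 log2, SE 0.54). The empty vector was apart from the other 3 arrays, and without it the difference was -0.12. The other feature of Alx4 was under the floor on all 4 arrays, and the median over both features read -0.36.

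**Figure D4:**
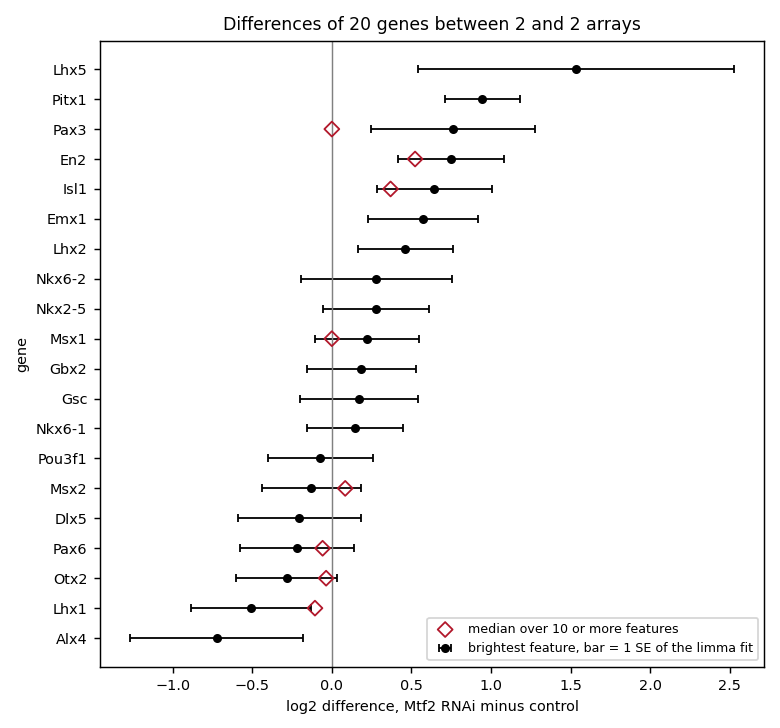
Log2 difference, Mtf2 RNAi minus control (horizontal axis), of the brightest feature of 20 genes (black points, bars of 1 SE of the limma fit) and of the median over features for genes with 10 or more (red diamonds). Lhx5 (1.54) has the widest bar and Pitx1 (0.94) the narrowest, and all 8 diamonds lie nearer 0 than their points.

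Each hairpin was also set against a control array of its own, so that the 2 differences share no array. Taking the empty vector as control of hairpin 1 and the luciferase array as control of hairpin 3, Pitx1 alone of the 43 was at least 0.5 log2 higher in both (0.96 and 0.93), 2.33% against 2.4% of all named genes. No gene of the 43 was at least 0.5 log2 lower in both, against 3.2%. With the controls exchanged, a choice made after seeing the data, Pitx1, Pax7 and En2 were higher in both (6.98% against 2.29%), and 0 were lower (against 3.6%). The arms themselves also held differences. Hairpin 3 and hairpin 1 were at least 2-fold apart for Pax3 (-1.52 log2, hairpin 3 minus hairpin 1) and Otx1 (1.16), 4.65% against 6.67% of all named genes. The luciferase hairpin and the empty vector were at least 2-fold apart for Lhx5 (2.99 log2, luciferase minus empty vector), Nkx6-2 (1.12) and Alx4 (-1.20), 6.98% against 8.48%. These rest on 1 array each and have no replicate check.

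**Figure D5:**
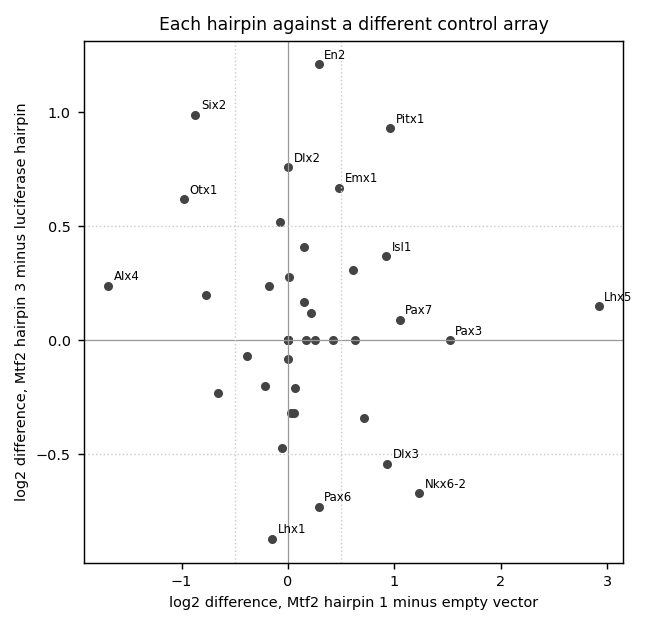
Log2 difference of Mtf2 hairpin 1 minus the empty vector (horizontal axis) and of Mtf2 hairpin 3 minus the luciferase hairpin (vertical axis) for the 43 genes, 1 point each, with dotted lines at 0.5 log2 in both directions. Pitx1 lies beyond 0.5 on both axes, and Lhx5 at 2.92 and 0.15.

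A list of 77 related homeobox genes was examined in the same way, of which 68 are named on the array. Of these 27 read above the median feature and 11 were at the floor on all arrays. Arms were separate for 15 on the higher side (22.1%) and for 14 on the lower side (20.6%), against 13.2% and 16.1% of all named genes, and the median difference was 0.0 log2. Among them, Lhx6 had 4.27 and 4.37 against 6.58 and 9.62 (-0.88 log2, SE 0.37), while Pou3f3 had 3.48 and 2.98 against 2.19 and 1.39 (0.89, SE 0.36). Both were chosen after their values were seen, and limma's adjusted p was 0.868 for each.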

How the data were processed

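Per the labels' protocols, Trizol RNA from E14 cells was made into Cy3-labelled cRNA with the Agilent one-color kit. The authors' deposited values are intensity per feature on a linear scale. Values at or below 0 (2260 to 2879 per array) show a subtracted background. The sources used here do not name scanner, extraction or normalization. Arrays were brought to 1 shared 75th percentile (22.98), floored at 1 unit (chosen with earlier results known) and log2 was taken. The 10118 of 45220 features at the floor on all 4 arrays were left out of tests, and 35102 were tested with limma 3.58.1 (lmFit, eBayes with intensity trend; R 4.3.3) and Benjamini-Hochberg adjustment, after a test on simulated data. The number of arrays limits the precision. The p-values rest on the spread between the 2 arrays within each arm, moderated over features. That spread contains the difference between plasmids and may also be technical.

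Gene names come from the platform annotation, which gives 33653 features 1 symbol; 56 with several symbols and 11511 unlisted ones stay unnamed. A gene is represented by its feature with the highest mean log2 level, and medians over features are given beside it. Feature numbers were read as 532 rows of 85; a position counts as defective if its neighbours in a 7 by 7 square (at least 10 measured) deviate by a median of over 0.5 log2 from the 4-array median. The members and lists were chosen with earlier results of these data known. Values on each array are given for members above the median feature and the 6 largest differences, and beyond that rule for most other members. The rule on protein sequences was not applied. Alternatives covered scaling, floor, filter, array defects, choice of feature, variance model and leaving out each array.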

Additional observations from a re-analysis of the deposited data

How the results depend on the processing

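No feature was called under any scaling, floor, stricter filter, defect, variance or leave-one-out setting tried, except that keeping the features at the floor in the fit gave 36 calls (2142 at an unadjusted p under 0.05), 0 of them in the 43 genes; that setting adds 10118 features with no spread. Over genes above the median feature, arms were separate upwards in 6 of the 18 members (33.33%) and downwards in 1 (5.56%). Of the 27 related homeobox genes at that level, 7 were higher (25.93%) and 9 lower (33.33%). The shares of all named genes at that level were 16.49% and 19.02%. When 1 array is left out, an arm of 1 array is separate more easily. Higher members then numbered 12 to 18 and lower members 6 to 10. Related genes numbered 18 to 26 higher and 16 to 20 lower. For all named genes the shares with 1 array left out were not counted, so these counts show neither an excess nor a deficit. In these fits the lone array is assumed to vary like the other arm. The median over the 43 genes stayed between 0.0 and 0.108 log2. With the controls exchanged between hairpins, 3 in place of 1 were higher with both. Of 176 gene values under other alternatives, 175 kept their direction. Msx2 turned to 0.08 with the median over its features, and the cause was not tested. The filter and variance settings reuse the same log2 values, so directions could not change under them. Changed floors leave readings above them as they were, and dropping defective positions touches only features at such positions. The median over features repeats the same value for genes with 1 feature. Most of the 176 values therefore could not turn, and the 175 is no measure of how stable the directions are. Msx1 and Pax3 are not counted for the median over features, where both read 0.0. Of 80 gene values with 1 array left out, 11 turned. Ranges over these were -0.28 to 0.84 for Nkx6-2 and -0.17 to 0.54 for Gbx2 (turned without the empty vector, Nkx6-2 also without hairpin 1), -0.43 to 0.28 for Pou3f1, -0.06 to 0.40 for Gsc and -0.46 to 0.05 for Dlx5 (without the luciferase array or hairpin 1), -0.01 to 0.45 for Msx1 (without luciferase) and -0.55 to 0.11 for Pax6 (without hairpin 3). Lhx5 ran from 0.04 to 3.03, Pax3 from 0.0 to 1.52, Alx4 from -1.32 to -0.12 and Nkx6-1 from 0.04 to 0.25. No paired analysis was possible because the control plasmids carry no number that matches the hairpins. Near the floor, signal over background limits every size given.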

Other observations

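Further homeobox genes outside the 43 are given here, chosen after their values were seen and given as values without a call (limma adjusted p = 0.868 for each, unless stated). Most of those shown read higher, which does not hold for the 68 related genes they come from. Of these 68, 32 read higher and 25 lower, with a median difference of 0.0 log2. Phox2a, a gene of noradrenergic and cranial motor neurons, had 23.4 and 19.7 units with Mtf2 hairpins 1 and 3, against 9.60 with the luciferase hairpin and 14.0 with the empty vector (0.89 log2, SE 0.33). Barx1, of stomach and jaw mesenchyme, had 4.65 and 5.79 against 3.02 and 3.01 (0.78, SE 0.34). Mnx1, of motor neurons, was below the median feature and had 1.99 and 3.64 against 1.51 and 0.49 (1.13, SE 0.42), with the empty vector under the floor. Prrx2, a limb and craniofacial mesenchyme gene, had 10.5 and 12.4 against 21.4 and 21.4 (-0.91, SE 0.28). Pou4f1, of sensory neurons, had 58.1 and 65.2 against 54.2 and 36.9 (0.46, SE 0.28). Hhex, of anterior endoderm, had 57.6 and 46.6 against 35.1 and 53.8 with overlapping arms (0.26, SE 0.31, limma adjusted p = 0.885). Hmx1 read 1.84 higher (SE 0.97), with 10.4 and 9.26 against 7.55 with the luciferase hairpin and -0.06 with the empty vector, whose feature lies in the low strip of that array.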
